A study of Homo sapiens with 9 samples.

Results

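The human HOX genes encode homeodomain transcription factors and lie in 4 clusters, HOXA, HOXB, HOXC and HOXD, on different chromosomes. Members were all protein-coding genes of the deposited count table whose symbol is HOXA, HOXB, HOXC or HOXD followed by a number, which gave 39 of 60448 rows. Of the 39 members, 11 lie in HOXA, 10 in HOXB, 9 in HOXC and 9 in HOXD. The series is RNA-seq of cells labelled Huh7, an established line from a human liver carcinoma, grown in DMEM, with OPA1 as the knock-down target. OPA1 encodes the GTPase that fuses the inner mitochondrial membrane and shapes its cristae. There were 9 libraries in 3 groups of 3, labelled control, N_28 and N_30, and both N groups carry the genotype label OPA1 knock-down. The treatment field reads the same for all 9 libraries, controls included, and names knock-down of OPA1 by lentivirus. The names N_28 and N_30 are not explained there, nor is the virus that the controls received. No label ties the 3 libraries of a group to separate cultures. The p-values therefore rest on library-to-library spread, part or all of which may be technical.

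Within a HOX cluster the genes share an orientation and carry numbers from the 3′ end to the 5′ end, and in the embryo low numbers are switched on first and nearest the head while high numbers mark the tail end, the distal limb and the urogenital system. Genes of the same number in different clusters are paralogs. Adult cells and cell lines keep a set of active HOX genes that reflects the body region they came from, held by Trithorax proteins on active genes and Polycomb proteins on silent ones, and retinoic acid is the best known signal that switches the low-numbered genes on.

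Library totals ran from 16476389 to 22863328 reads. OPA1 stood at 88.7 ± 5.28 CPM (reads scaled to a common library total; mean ± SD, n = 3) in the controls, 55.5 ± 2.25 in N_28 and 64.4 ± 1.30 in N_30, so 62.6% and 72.7% of the control level remained. Both falls passed the threshold of adjusted p under 0.05 used for all calls (edgeR quasi-likelihood test, Benjamini-Hochberg adjusted; log2 fold change -0.68, adjusted p = 1.38e-05 for N_28; -0.46, adjusted p = 0.00221 for N_30). The defining markers of hepatocytes were low or absent. Of 13 hepatocyte markers, 5 had a mean of at least 1 CPM over the libraries, APOB had no reads, ALB had 0 to 10 reads per library and the liver regulator HNF4A 0 to 4. Of 4 markers of renal epithelium, PAX2 stood at 154 CPM and LHX1 at 99.1 CPM in the controls, PAX8 at 4.89 CPM, and EMX2 had no reads. The cells are therefore called by their label here and no cell type is assigned to them.

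Reads from the HOX genes were few and fell almost wholly in HOXA and HOXB. The 9 libraries together held 5390 HOX reads, of which 2986 (55.4%) came from HOXB, 2065 (38.3%) from HOXA, 317 (5.88%) from HOXC and 22 (0.408%) from HOXD. No read was counted for 9 members, namely HOXB1, HOXC5, HOXC12, HOXD1, HOXD3, HOXD4, HOXD10, HOXD11 and HOXD12. A count of 0 allows up to 3 reads in a library, which is 0.131 to 0.182 CPM at these depths and covers counting error only. Reads in exons shared with other genes may also have gone uncounted, which was not tested. Of the exon bases, 80.5% are shared in HOXD4, 74.1% in HOXD3, 59.9% in HOXC5, 58.1% in HOXD1, 21.4% in HOXD11 and 16.8% in HOXD10. HOXB1, HOXC12 and HOXD12 share none. Another 10 members had at least 1 read but at most 3 in any library. Of the 22 HOXD reads, 19 came from HOXD9, 2 from HOXD13 and 1 from HOXD8. A test of change was run on the 13 members that reached about 0.487 CPM in at least 3 libraries, which were HOXA3, HOXA5, HOXA11, HOXA13, HOXB3, HOXB5, HOXB6, HOXB7, HOXB8, HOXB9, HOXB13, HOXC4 and HOXC6. The other 26 members, 17 of them with reads, were not tested. HOXC6 passed the filter only through N_28 and HOXB13 only through N_30, so each had to be high in that group to be tested at all. HOXA11 passed through 2 libraries of N_28 and 2 of N_30 with no control above the filter. HOXB3 had 1 control above it, beside 3 libraries of N_28 and 3 of N_30. The 13 do not stand for all members.

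To compare genes with each other, CPM was divided by the length of each gene's merged exons in kilobases. On this scale HOX genes were low to moderate. The median of the 14918 tested genes with a length was 4.05 CPM per kilobase over the 9 libraries, and the highest HOX gene, HOXB6, stood at 2.34, the 38.6th percentile of those genes. HOXA3 followed at 1.74, then HOXB7 at 1.29 and HOXB8 at 1.24, HOXB5 at 0.911, HOXB9 at 0.784, HOXA5 at 0.510, HOXC4 at 0.343 and HOXA13 at 0.287. Every other member lay below 0.2 CPM per kilobase.

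The HOXB cluster (chr17:48528526-48729178, GRCh38) held 1 continuous run of expressed genes in its middle. In the controls HOXB5 stood at 0.817 ± 0.173 CPM per kilobase, HOXB6 at 1.94 ± 0.379, HOXB7 at 0.934 ± 0.122, HOXB8 at 1.03 ± 0.0744 and HOXB9 at 0.551 ± 0.110 (SD, n = 3). HOXB6 stood apart from its neighbours by more than these spreads, while HOXB5, HOXB7 and HOXB8 did not differ from each other beyond them. Before the run, at the low-numbered end, HOXB1 had no read, HOXB2 had 10 in all and HOXB4 43, and HOXB3, a hindbrain and pharyngeal arch gene, stood at 0.0743 ± 0.0365 CPM per kilobase. After it, at the high-numbered end, HOXB13, which marks the tail end of the body and the prostate, stood at 0.0884 ± 0.0132.

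**Figure D1:**
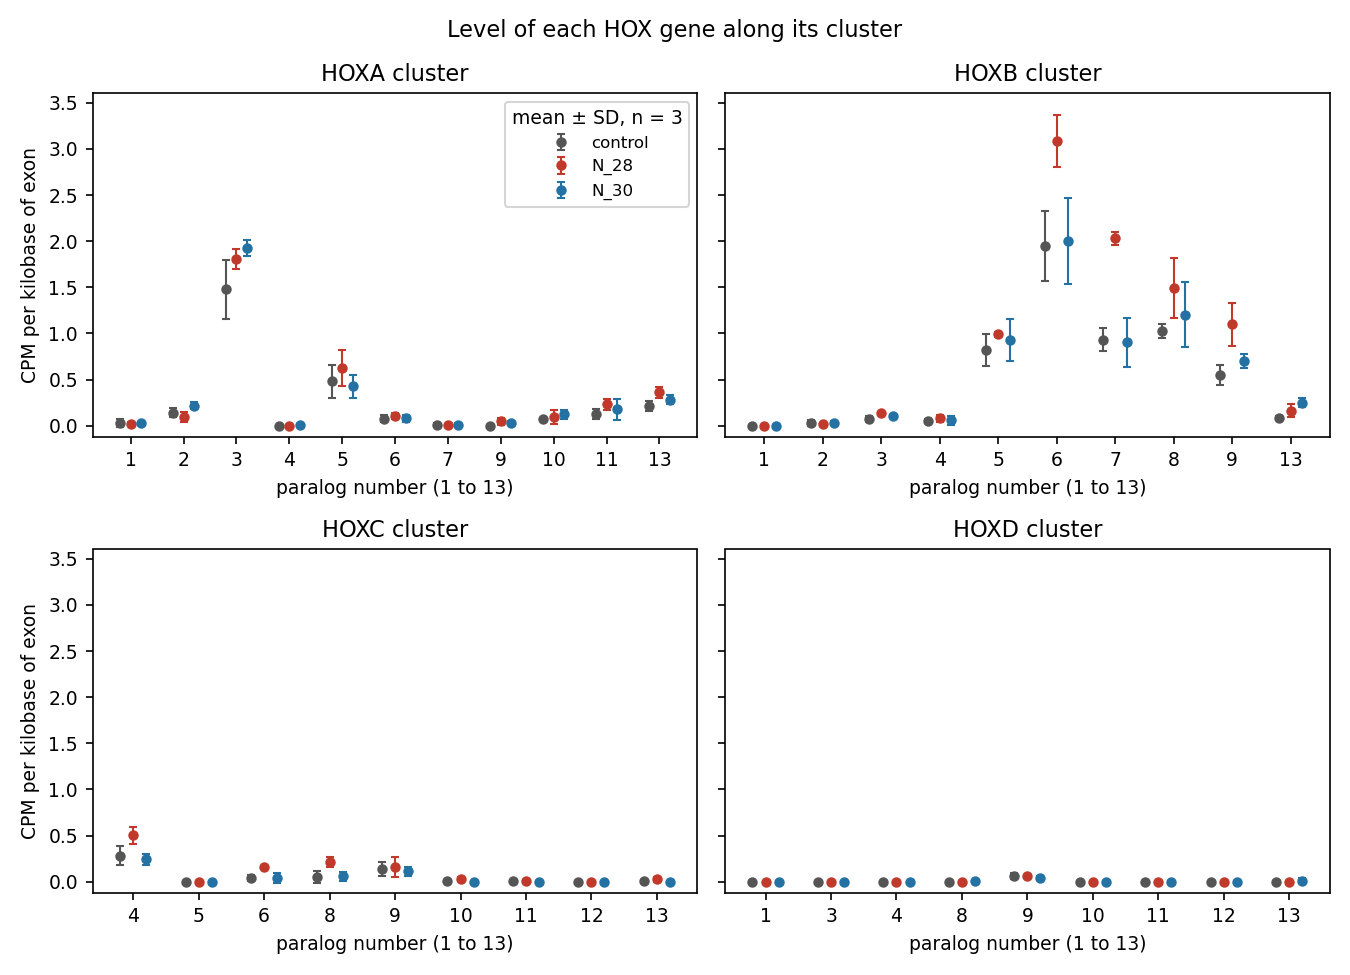
Level of each of the 39 HOX genes (vertical axis, CPM per kilobase of merged exon; points, group mean; bars, SD of 3 libraries) by paralog number (horizontal axis), 1 panel per cluster. HOXB5 to HOXB9 form a run with HOXB6 on top, HOXA3 and HOXA5 stand out in HOXA, HOXC is low with HOXC4 on top, and HOXD lies at or near 0.

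The HOXA cluster (chr7:27092993-27200106) showed no such run. HOXA3, which is needed for thymus and parathyroid development, led with 1.48 ± 0.324 CPM per kilobase in the controls, and HOXA5, a lung and thoracic patterning gene, followed with 0.481 ± 0.179. Between them HOXA4, which shares 47.3% of its exon bases with other genes, had 1 read in all 9 libraries. HOXA13, a gene of the distal limb and urogenital tract, stood at 0.214 ± 0.0542 at the far end of the cluster, above HOXA11 at 0.125 ± 0.0575 and HOXA10 at 0.0691 ± 0.00331. Of the exon bases, 1.69% are shared with other genes in HOXA13, 31.1% in HOXA11, 26.3% in HOXA10 and 17.9% in HOXA3. The part of this sharing in the order was not tested. HOXA7 had 5 reads and HOXA9 14 over the 9 libraries, and they share 62.5% and 27.0% of their exon bases with other genes. The order HOXA3, HOXA5, HOXA13 was the same when the longest transcript replaced merged exons as the length.

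In the HOXC cluster (chr12:53938765-54056030) HOXC4, at the low-numbered end, was highest with 0.284 ± 0.0984 CPM per kilobase in the controls. HOXC9 had 7, 5 and 2 reads in the controls, 10, 4 and 3 in N_28 and 4, 2 and 5 in N_30, which overlap. HOXC10, HOXC11 and HOXC13 had 2 to 5 reads each over the 9 libraries. In HOXD (chr2:176092891-176190907) HOXD9 had 1 to 3 reads in every library and its neighbours HOXD8 and HOXD10 had 1 and none.

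The regions around a listed start of HOXA3 and of HOXC4 are shown. These genes led their clusters and have an entry in the RefSeq promoter table (GRCh38.p14). The table holds 20 of the 39 HOX genes and 4 of the 13 tested ones. It lists 7 windows for HOXA3, and the window shown lies at the gene's upstream end, between HOXA6 and HOXA7. Each window runs from 250 bases before the start to 50 after it, on the gene's strand. The capitals mark GAAAATTTACA and GTCATGTGGAT, the 2 longest runs of bases that the windows share, both of 11 bases.
HOXA3, chr7:27152534-27152833, minus strand: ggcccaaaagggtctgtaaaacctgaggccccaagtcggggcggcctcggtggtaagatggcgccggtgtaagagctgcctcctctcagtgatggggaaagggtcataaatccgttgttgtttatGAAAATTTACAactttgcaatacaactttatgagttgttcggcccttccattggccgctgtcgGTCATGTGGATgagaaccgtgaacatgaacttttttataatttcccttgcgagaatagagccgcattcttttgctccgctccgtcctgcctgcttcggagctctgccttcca
HOXC4, chr12:54016638-54016937, plus strand: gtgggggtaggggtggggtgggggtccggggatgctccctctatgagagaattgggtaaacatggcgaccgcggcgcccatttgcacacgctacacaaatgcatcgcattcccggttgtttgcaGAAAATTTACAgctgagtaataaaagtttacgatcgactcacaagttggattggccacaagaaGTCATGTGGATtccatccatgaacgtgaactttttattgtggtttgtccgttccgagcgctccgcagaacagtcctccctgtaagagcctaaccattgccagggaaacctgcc
On either strand, GAAAATTTACA was present in 11 of 35116 promoter windows of this length (0.0313%) and GTCATGTGGAT in 8 (0.0228%). Among the 27 HOX windows each run was present in 3, those of HOXC4 and HOXC5 and the HOXA3 window shown. The other HOXA3 windows lack both runs. Both runs were chosen from these sequences and have no test. HOXC5 has the same window as HOXC4 in the table, although HOXC5 had no reads. Each of the 2 windows holds 15 CG dinucleotides, against a median of 14 over all windows and 22 over the 27 HOX windows. TGATNNAT, written after the sequence bound by HOX proteins together with PBX, was searched on both strands and was present in 2598 windows (7.40%) and in 3 of the HOX windows, those of HOXA2, HOXB1 and HOXD11. A match describes the letters in the window and is not a binding site.

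The first comparison was N_28 against control. Of 7 tested HOXB genes, HOXB6, HOXB7 and HOXB9 rose in N_28 and HOXB3, HOXB5, HOXB8 and HOXB13 did not pass the test, and none of the tested HOX genes fell. These were 3 of 13 tested HOX genes called higher and 0 lower, where 4.49% of all 15019 tested genes were called higher and 5.75% lower (10.2% in either direction). DESeq2 called the same 3 genes and also none lower. At an unadjusted p under 0.05, 8 of the 13 passed. The share of all tested genes under that level is not given, so this count cannot be set against it. In 8 of the 13 all 3 N_28 libraries lay above all 3 controls, a pattern that 14.2% of all tested genes showed (14.6% showed the reverse, and no tested HOX gene did). The median log2 fold change of the 13 was 0.80, beside 0.00 over all tested genes. Because HOXC6 entered the 13 through its N_28 values and HOXA11, HOXB3 and HOXB13 through knock-down libraries, the counts and the median only describe these 13 genes.

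The levels summed over all members of a cluster, tested or not, involve no filter. HOXB reads summed to 13.4, 12.4 and 12.7 CPM in the controls, 20.3, 20.4 and 22.2 in N_28, and 12.2, 14.0 and 17.9 in N_30. All N_28 libraries lay above all others, and N_30 overlapped the controls. HOXC summed to 1.29 ± 0.350 CPM in the controls, 2.75 ± 0.504 in N_28 and 1.10 ± 0.272 in N_30, again with the N_28 libraries (2.36 to 3.32) above the controls (0.919 to 1.61). HOXA summed to 9.38 ± 1.81, 12.2 ± 0.970 and 12.2 ± 1.0, with 11.3 as the lowest N_28 library and 11 as the highest control. The N_30 libraries (11.4 to 13.3) also all lay above the controls. HOXD stayed between 0.0489 and 0.267 CPM in all libraries. In bulk RNA, fewer cells of a type and less RNA per cell cannot be told apart, and that holds for every difference given here.

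HOXB7, a thoracic-level gene of the same homeobox class as fly Antennapedia, gave the clearest difference. Its 3 control libraries read 1.22, 1.58 and 1.48 CPM, the N_28 libraries 3.22, 3.07 and 3.01, and the N_30 libraries 0.962, 1.41 and 1.78. Every N_28 library was far above every library of the other groups, which overlapped. The log2 fold change in N_28 was 1.12 (SE 0.22, adjusted p = 0.00444, edgeR quasi-likelihood test with Benjamini-Hochberg adjustment), a 2.17-fold rise. None of the exon bases of HOXB7 (chr17:48607227-48633572, minus strand) is shared with another gene in GENCODE release 29, and the call held under all 16 alternative settings.

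HOXB9, the last gene of the expressed run and a thoracic patterning gene, read 1.47, 1.68 and 1.12 CPM in the controls, 3.46, 2.25 and 2.79 in N_28, and 1.62, 1.81 and 2.0 in N_30. The N_28 libraries lay above both other groups. The log2 fold change in N_28 was 1.0 (SE 0.23, adjusted p = 0.0107, edgeR quasi-likelihood test with Benjamini-Hochberg adjustment), a 2.01-fold rise. HOXB9 (chr17:48621159-48626356) shares no exon bases with other genes. Without control library 3 its adjusted p was 0.0522, and without N_28 library 1 it was 0.0620.

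HOXB6, the highest HOX gene per kilobase of exon but below HOXA3 in control CPM, read 6.16, 4.24 and 4.79 CPM in the controls. It read 7.36, 7.91 and 8.81 in N_28, and 4.33, 4.72 and 6.58 in N_30. N_28 did not overlap the other groups. In N_28 HOXB6 rose by 0.67 on the log2 scale (SE 0.17, adjusted p = 0.0247, edgeR quasi-likelihood test with Benjamini-Hochberg adjustment), or 1.59-fold, and the call was lost in 4 of the 9 fits that left out 1 library, without control 2 or 3 or N_28 2 or 3 (adjusted p from 0.0666 to 0.0908). HOXB6 (chr17:48595751-48604992) shares 33.0% of its exon bases with HOXB3 on its own strand or with the antisense gene HOXB-AS3, and the counting strand is not given. HOXB-AS3 stood at 1.79 ± 0.222 CPM in the controls and 1.97 ± 0.758 in N_28 and was not called (log2 fold change 0.15), while HOXB3 stood at 0.554 ± 0.272 and 0.999 ± 0.0433 and was not called (0.86, adjusted p = 0.123 by edgeR).

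**Figure D2:**
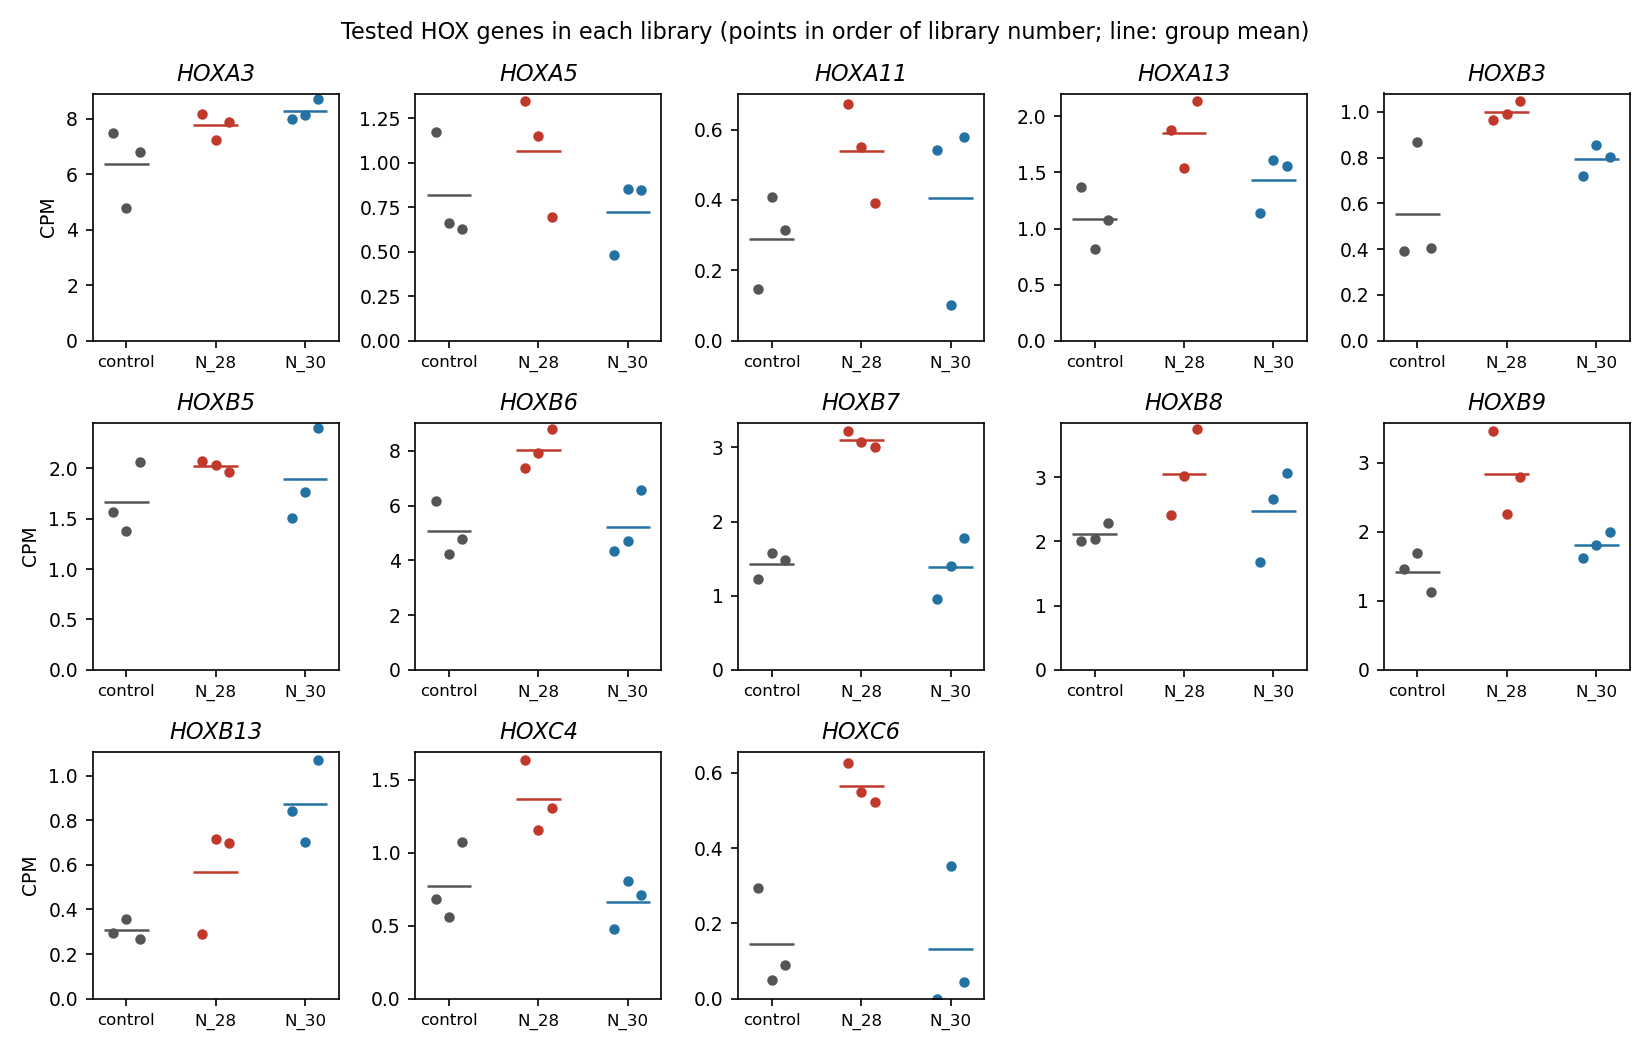
CPM (vertical axis, starting at 0) of each of the 13 tested HOX genes in the 9 libraries, 1 panel per gene; points are libraries in order of their number and lines are group means. The N_28 points of HOXB6, HOXB7 and HOXB9 lie above all points of both other groups, and HOXA5 and HOXB5 overlap throughout.

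Paralogs share much of the homeobox, the stretch of 180 bases that encodes the DNA-binding homeodomain, so reads that fall in it can be hard to assign. The last part of the homeobox, which encodes most of the recognition helix, is shown for the called genes, for HOXC6 as a paralog of HOXB6 and for HOXA13 as a distant member (bases 133 to 174, from GENCODE release 29 transcripts). Capitals mark bases that differ from HOXB7.
HOXB7: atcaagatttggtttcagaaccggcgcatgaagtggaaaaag
HOXB6: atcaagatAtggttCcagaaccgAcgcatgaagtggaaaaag
HOXB9: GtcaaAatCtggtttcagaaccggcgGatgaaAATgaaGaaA
HOXC6: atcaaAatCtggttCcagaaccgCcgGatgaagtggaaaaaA
HOXC4: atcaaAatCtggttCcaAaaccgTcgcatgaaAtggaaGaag
HOXA13: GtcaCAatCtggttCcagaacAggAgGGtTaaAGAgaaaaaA
In these 42 bases HOXB6 differs from HOXB7 at 3, HOXC6 at 6, HOXC4 at 7, HOXB9 at 9 and HOXA13 at 14. Over the whole homeobox HOXB6 and HOXB7 are 88.9% identical and share a run of 51 bases without a difference. HOXB9 is closest to HOXD9 (84.4%), with a shared run of 40 bases. HOXC4 is closest to HOXB4 (81.7%). No source used here says how reads matching more than 1 gene were counted, so a split between HOXB6 and HOXB7 in that stretch is uncertain.

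The genes next to the called ones had higher estimates in N_28 that did not pass the test. HOXB8, between HOXB7 and HOXB9 in number, read 2.0, 2.04 and 2.28 CPM in the controls, 2.41, 3.02 and 3.75 in N_28 and 1.68, 2.66 and 3.07 in N_30, with a log2 fold change of 0.54 in N_28 (SE 0.23, adjusted p = 0.174 by edgeR). Its N_28 libraries lay above the controls and overlapped N_30. HOXB5, below HOXB6 in number, read 1.56, 1.38 and 2.06 in the controls, 2.07, 2.03 and 1.96 in N_28 and 1.5, 1.76 and 2.40 in N_30, groups that overlapped, with a log2 fold change of 0.27 (SE 0.23).

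HOXC6, a thoracic gene like its paralog HOXB6, had the highest estimate, on few reads. It read 0.293, 0.0510 and 0.0896 CPM in the controls, 0.625, 0.549 and 0.523 in N_28, and 0, 0.352 and 0.0445 in N_30. The N_28 libraries lay above all others, but the gene was tested because of them. Its log2 fold change in N_28 was 1.93 (SE 0.68, adjusted p = 0.0926, edgeR quasi-likelihood test with Benjamini-Hochberg adjustment), and it passed when only the control and N_28 libraries were fitted (adjusted p = 0.0412 by edgeR). The next HOXC gene with reads, HOXC8, was below the filter with 5, 0 and 1 reads in the controls, 6, 8 and 11 in N_28 and 3, 3 and 0 in N_30. HOXC4, whose exons overlap those of HOXC5 and HOXC6 over 17.8% of their bases, read 0.684, 0.562 and 1.08 CPM in the controls and 1.64, 1.15 and 1.31 in N_28, which did not overlap, with a log2 fold change of 0.80 (SE 0.30, adjusted p = 0.115 by edgeR).

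In HOXA no gene passed. HOXA3 read 7.47, 4.80 and 6.81 CPM in the controls, 8.18, 7.25 and 7.89 in N_28, and 8.0, 8.14 and 8.72 in N_30. Control 2 was the lowest library, N_28 overlapped the controls and N_30 did not. HOXA5 read 1.17, 0.664 and 0.627 in the controls, 1.35, 1.15 and 0.698 in N_28 and 0.481, 0.854 and 0.845 in N_30, all overlapping. HOXA13 stood at 1.09 ± 0.276 CPM in the controls, 1.85 ± 0.301 in N_28 and 1.44 ± 0.256 in N_30, with a log2 fold change in N_28 of 0.77 (SE 0.25, adjusted p = 0.0725, edgeR quasi-likelihood test with Benjamini-Hochberg adjustment). HOXA11, a gene of kidney and forearm development, stood at 0.290 ± 0.133, 0.538 ± 0.141 and 0.407 ± 0.266.

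**Figure D3:**
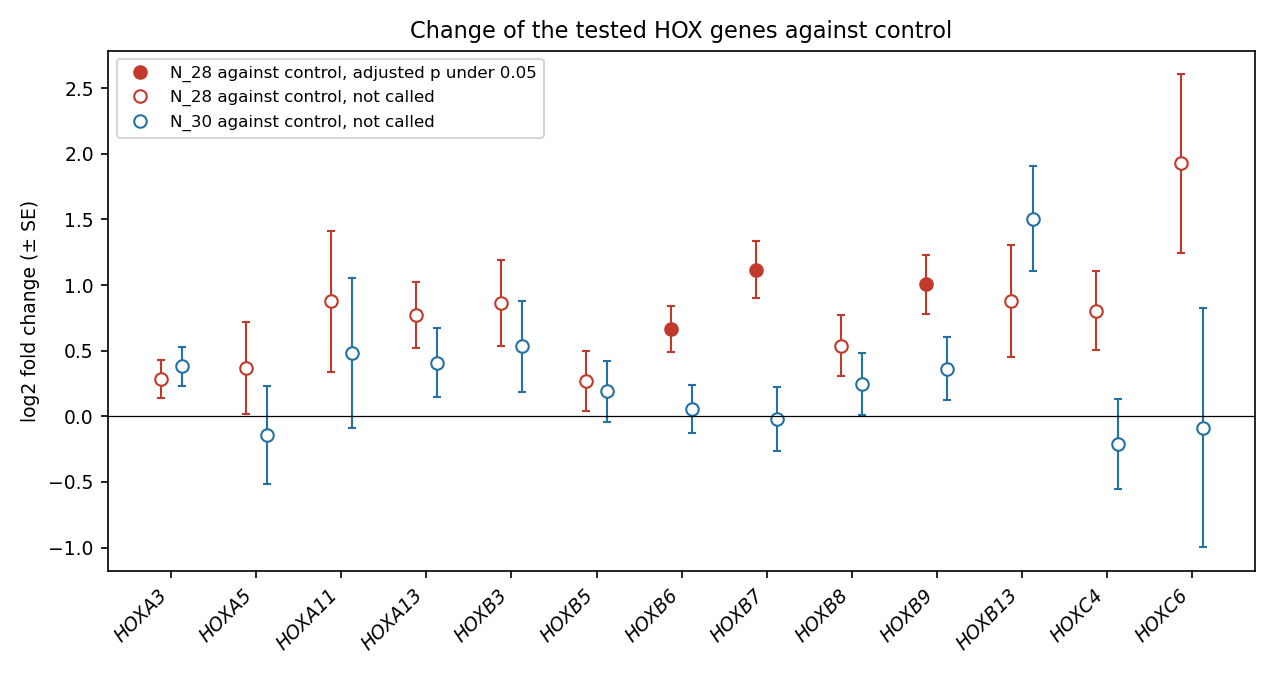
Log2 fold change against control (vertical axis; bars, SE from edgeR) of the 13 tested HOX genes in N_28 and N_30, with filled points for adjusted p under 0.05. Filled points are HOXB6, HOXB7 and HOXB9 in N_28, and no N_30 point is filled.

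Against the same controls, N_30 gave no called HOX gene: edgeR called 0 of 13, where 0.459% of all tested genes were called higher and 0.406% lower (0.866% in either direction). With the replicate number as a block in the fit 2.82% of all tested genes were called and again 0 of the 13. DESeq2 also called 0. HOXA3 and HOXB13, 2 of the 13, passed an unadjusted p under 0.05, a level whose share over all tested genes is not given. Both also had all N_30 libraries above all controls, as 7.53% of all tested genes did. None of the 13 had them all below, as 7.64% did. HOXB13 was tested only through its N_30 libraries, so the filter favoured it in both counts. The median log2 fold change of the 13 was 0.25, and 0.07 without N_30 library 3 and 0.38 without N_30 library 1. The estimates in N_30 for the genes that rose in N_28 were 0.06 for HOXB6 (SE 0.18), -0.02 for HOXB7 (SE 0.24) and 0.36 for HOXB9 (SE 0.24). HOXA3 had a log2 fold change of 0.38 (SE 0.15, adjusted p = 0.317 by edgeR).

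HOXB13 was tested because of its N_30 values. It read 0.293, 0.357 and 0.269 CPM in the controls, 0.289, 0.714 and 0.698 in N_28, and 0.842, 0.704 and 1.07 in N_30. The N_30 libraries lay above the controls and overlapped N_28. Its log2 fold change in N_30 was 1.51 (SE 0.40, adjusted p = 0.118, edgeR quasi-likelihood test with Benjamini-Hochberg adjustment), and in N_28 0.88 (SE 0.43). The N_30 value passed when genes were not filtered on low counts (adjusted p = 0.0424 by edgeR).

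When the mean of both knock-down groups was set against control, edgeR called 0 of the 13 HOX genes and DESeq2 0 as well. At an unadjusted p under 0.05, 7 passed, with no share over all tested genes given. HOXB3 and HOXB13 are among the 7, and both reached the test through knock-down libraries. Over all tested genes 0.533% were called higher and 1.25% lower (1.78% in either direction, 4.10% with the replicate block, which also called 0 of the 13). The lowest adjusted p was that of HOXB9 (log2 fold change 0.68, SE 0.20, adjusted p = 0.137 by edgeR), and HOXB7 had 0.55 (SE 0.20). This mean uses the same controls and libraries as the separate comparisons.

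The difference between the knock-down groups was tested directly as N_30 against N_28. HOXB6, HOXB7 and HOXC4 were lower in N_30, 3 of 13 tested HOX genes, and none was called higher, where 8.96% of all tested genes were called lower and 9.38% higher (18.3% in either direction). DESeq2 called 2 lower, without HOXC4, and none higher. At an unadjusted p under 0.05, 5 of the 13 passed, with no share over all tested genes given. In 6 of the 13 all N_30 libraries lay below all N_28 libraries, a pattern 18.1% of all tested genes showed, and in none did they all lie above (18.4%). HOXC6 is in both counts and was tested only through its N_28 libraries, so these counts only describe the 13 genes. HOXB7 had a log2 difference of -1.14 (SE 0.22, adjusted p = 0.00268, edgeR quasi-likelihood test with Benjamini-Hochberg adjustment) and HOXB6 -0.61 (SE 0.17, adjusted p = 0.0250). HOXB7 was called in all 16 alternative settings, and it was the only HOX gene still called without N_28 library 3 or without N_30 library 1. The call of HOXB6 was lost in 4 of the fits without 1 library, those without N_28 library 2 or 3 or N_30 library 1 or 2 (adjusted p from 0.0637 to 0.0942 by edgeR).

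HOXC4 read 0.481, 0.804 and 0.712 CPM in N_30, below the N_28 values of 1.15 to 1.64. The N_30 libraries overlapped the controls, and library 1 of N_30 was lower than any control. Its log2 difference was -1.02 (SE 0.31, adjusted p = 0.0377, edgeR quasi-likelihood test with Benjamini-Hochberg adjustment). The call was lost with DESeq2 (adjusted p = 0.0687) and in 6 of the fits without 1 library, each time with a library of these groups left out (adjusted p from 0.0553 to 0.131). HOXB9 had -0.64 (SE 0.22, adjusted p = 0.0574 by edgeR), with all N_30 libraries below all N_28 libraries. HOXC6 had -2.01 (SE 0.70, adjusted p = 0.0612 by edgeR), and with replicate number as a block in the fit it passed (adjusted p = 0.0417 by edgeR), which made 4 HOX genes called.

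Other marker genes moved with N_28 as well. The summed level of the 13 hepatocyte markers was 19.5 to 22.0 CPM in the controls, 10.1 to 10.9 in N_28 and 21.9 to 30.0 in N_30. Of 4 epithelial markers 3 reached a mean of 1 CPM, and their sum was 469 to 542, 386 to 430 and 569 to 601 in the same order. Of 8 mesenchymal markers 5 did, with sums of 2301 to 2411, 2096 to 2195 and 2320 to 2448, and DCN and LUM at or near 0. Of 4 endothelial markers only PECAM1 did, with sums of 1.22 to 1.57, 2.14 to 2.69 and 1.38 to 1.98 and KDR at 0. The 4 renal markers summed to 219 to 279, 176 to 246 and 229 to 264. Within that sum LHX1 had group means of 99.1, 53.1 and 93.8 CPM and PAX8 of 4.89, 6.67 and 5.56. No blood marker reached 1 CPM. Remaining OPA1 also differed, being higher in N_30 than in N_28 (log2 difference 0.21, adjusted p = 0.0265 by edgeR). The part of these differences in the HOX results was not tested.

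Genes around the clusters, which sit in the same chromosomal region but are no HOX genes, were described for comparison. Within 1 Mb of HOXB, 35 other genes were tested, among them LINC03057, LINC02086 and HOXB-AS3 inside the cluster. The median log2 fold change of the 35 in N_28 was 0.10, with 2 called higher and 1 lower. Of them 25 lay above 0, where 49.7% of all tested genes did. Above 0 lay 4 of 9 neighbours of HOXA, 10 of 31 of HOXC and 4 of 4 of HOXD. In N_30 against N_28, 4 of the 35 were called lower and 0 higher, where 8.96% of all tested genes were called lower and 9.38% higher. The medians in N_28 were -0.11 for 9 neighbours of HOXA (0.0291 within 2 Mb, a change of sign), -0.04 for 31 of HOXC and 0.12 for 4 of HOXD. In N_30 the 4 medians ran from -0.02 to 0.05 and 1 neighbour of HOXB was called higher.

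The neighbour with the highest estimate in N_28 lies inside HOXB. LINC03057, a long non-coding RNA gene on the minus strand between HOXB9 and HOXB13 (chr17:48635923-48647023), had 3, 2 and 1 reads in the controls, 18, 15 and 33 in N_28, and 9, 13 and 2 in N_30. All N_28 libraries were above all others, and N_30 overlapped the controls through its library 3. It reached the filter level in 3 N_28 libraries, 2 N_30 libraries and no control, so it had to be higher in the knock-down libraries to be tested. The test called it higher in N_28 (log2 fold change 3.37, SE 0.63, adjusted p = 0.00334, edgeR quasi-likelihood test with Benjamini-Hochberg adjustment) and had 2.03 in N_30 (SE 0.75, adjusted p = 0.304). LINC02086, the next gene toward HOXB13, had 0.80 in N_28 (SE 0.60) and 1.76 in N_30 (SE 0.54, adjusted p = 0.180 by edgeR) and was not called. It is named after its values were seen, because HOXB13 beyond it also had a higher estimate in N_30 than in N_28. The likeness therefore follows from the choice. Neither gene was called in N_30 against N_28. LINC02086 had a log2 difference of 0.96 (adjusted p = 0.197 by edgeR) and HOXB13 of 0.63 (adjusted p = 0.255 by edgeR). PRAC1 and PRAC2, which lie next to HOXB13, had no reads.

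**Figure D4:**
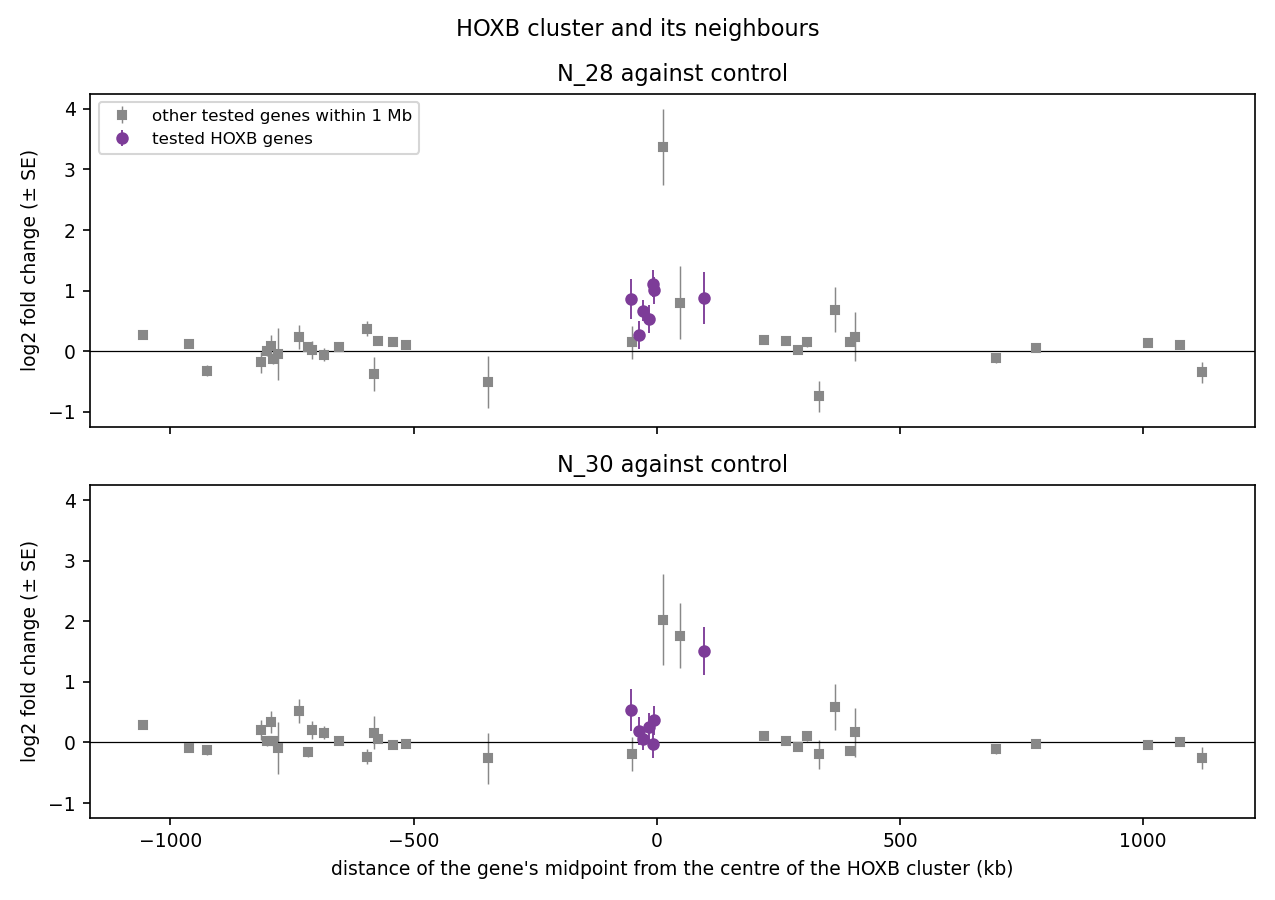
Log2 fold change (vertical axis; bars, SE from edgeR) of tested HOXB genes (circles) and of other tested genes within 1 Mb (squares) by distance of the gene's midpoint from the centre of the HOXB cluster in kb, for N_28 and N_30 against control. In N_28 the HOXB genes lie between 0.27 and 1.12 and LINC03057 at 3.37, while the median of the neighbours is 0.10.

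The genes that act on HOX genes or with them were taken from 7 lists with 92 tested genes in all. In N_28 15 of the 92 were called, where 10.2% of all tested genes were (4.49% higher, 5.75% lower). In N_30 against control edgeR called 0, where 0.866% of all tested genes were called, and DESeq2 called 0. An unadjusted p under 0.05 was reached by 9, with no share over all tested genes given. Of the TALE homeodomain cofactors, which bind DNA together with HOX proteins, 8 of 11 were tested, and in N_28 1 fell and none rose (DESeq2 also called 1). This was MEIS3, at 11 ± 2.75 CPM in the controls, 6.54 ± 0.633 in N_28 and 11.6 ± 1.95 in N_30 (log2 fold change -0.75 in N_28, adjusted p = 0.0128 by edgeR). MEIS2 and PBX3, other members of the family, had 0.04 and -0.04. The median of the 8 was 0.00, as over all tested genes.

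All 32 Polycomb genes, whose proteins keep HOX genes silent, were tested, and 2 rose and 2 fell in N_28, with a median of 0.02. PHF1 and PHC2 rose by 0.29 and 0.23 on the log2 scale, and SUZ12, a core subunit of the complex that methylates histone H3, fell by 0.24 from 102 ± 3.93 to 86.8 ± 1.39 CPM (adjusted p = 0.0107 by edgeR). CBX2 fell by 0.22. EZH2, the methyltransferase of that complex, had 0.13 in N_28 (SE 0.06, adjusted p = 0.196 by edgeR). Of 24 tested Trithorax genes and other HOX activators, 1 rose and 1 fell, with a median of 0.02. DOT1L rose by 0.23, and AFF4, a scaffold of the elongation complex that acts with MLL fusion proteins on HOX genes, fell by 0.57 from 117 ± 5.05 to 78.9 ± 2.79 CPM. KMT2A, the MLL methyltransferase itself, had 0.02.

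In the retinoic acid list 14 of 21 genes were tested, and 3 rose and 3 fell in N_28, with a median of -0.04. ALDH1A3, which makes retinoic acid, fell from 29 ± 3.27 to 10.7 ± 0.206 CPM (log2 fold change -1.43, SE 0.12) and stood at 36.8 ± 6.0 in N_30. CYP26B1, which degrades it, fell from 7.96 ± 2.09 to 3.66 ± 0.160 (-1.11, SE 0.19). NR2F2, a nuclear receptor, rose from 318 ± 22.4 to 429 ± 10.7 (0.43), and CRABP2, which carries retinoic acid to its receptor, rose by 0.47. RARA, a receptor for it, fell by 0.20, and ALDH1A1 rose by 0.43.

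Of the caudal and GDF11 list, 2 of 11 genes were tested and edgeR called 0 in N_28, with 0 at an unadjusted p under 0.05 and 0 by DESeq2. CDX1, CDX2 and CDX4, the caudal factors that switch on posterior HOX genes, were below the filter. Of the lineage factors of kidney, limb and gut, 10 of 16 were tested and 2 rose in N_28, with a median of -0.01. FOXA2, an endoderm factor, rose from 65.9 ± 3.17 to 87.3 ± 4.61 CPM (0.41). Of 28 non-coding genes of the clusters 22 had a row, but only HOXA-AS2 and HOXB-AS3 were tested, and neither was called by edgeR or DESeq2 or had an unadjusted p under 0.05. HOTAIR, HOTTIP and HOTAIRM1 were below the filter.

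In N_30 against N_28 21 of the 92 genes were called, where 18.3% of all tested genes were (9.38% higher, 8.96% lower). Among them were MEIS3 (0.83), ALDH1A3 (1.77), CYP26B1 (1.11) and AFF4 (0.59), which were higher in N_30, and FOXA2 (-0.43), PHF1 (-0.45) and EZH2 (-0.26), which were lower. By list, the counts higher and lower were 1 and 0 for the TALE cofactors, 2 and 3 for Polycomb, 2 and 4 for Trithorax, 3 and 3 for retinoic acid, 1 and 0 for the caudal list and 0 and 2 for the lineage factors.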

How the data were processed

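The deposited table holds read counts per Ensembl gene, whole numbers with no normalization, for 9 libraries. No source used here names the authors' aligner, counter, counting strand or read length. A mouse build, mm8, appears in the submitters' processing notes, although the rows are human gene identifiers. Symbols came from the gene name table (56434 rows) or GENCODE release 29 (434 rows), and 3580 rows had none. Coordinates and exon lengths are those of GENCODE release 29 on GRCh38. Genes were filtered with edgeR 4.0.16 (minimum count 10, about 0.487 CPM in 3 libraries, 15019 of 60448 rows kept), scaled by TMM over full library totals, and tested in 1 quasi-likelihood fit over the 3 groups, with Benjamini-Hochberg adjustment over all tested genes and a threshold of 0.05. R 4.3.3 and, as an alternative, DESeq2 1.42.0 were used, and the fit was tested on simulated counts. Totals of 16476389 to 22863328 reads leave genes under about 0.5 CPM with roughly 10 reads or fewer, so counting error dominates there. Between libraries of 1 group the chi-square per gene was 3.57 to 12.4, so none was treated as a repeat of another.

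Named genes are HOX genes called in any comparison, the 2 highest per kilobase in each cluster, the tested neighbours of called genes in number, and from each list the called genes of lowest adjusted p with up to 2 well-known others. The lists are TALE cofactors, HOX cluster non-coding genes, Polycomb, Trithorax and activators, retinoic acid, caudal and GDF11, and lineage factors, with cell type markers beside them. A gene of the lists and a sequence are not reported here. Members and lists were chosen with earlier results of these data known. Same-numbered control and N_30 libraries deviated together (correlations of 0.138, 0.224 and 0.366), so their numbers may pair them. Those of control and N_28 (-0.0665 to 0.195) and of N_28 and N_30 (-0.00999 to 0.302) did not in every pair. The main fit had no replicate block, so its p-values, those of N_30 against control included, do not use such a pairing. Alternatives were other scaling, filters, tools and groups in the fit, a replicate block, leaving out each library, gene length and the window around clusters.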

Additional observations from a re-analysis of the deposited data

Results flagged for a closer look

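For 3 HOX genes the effect of N_30 differed from the effect of N_28 against the same controls, by a direct test of N_30 against N_28 (edgeR quasi-likelihood test with Benjamini-Hochberg adjustment, 3 libraries a group). The log2 effect in N_30 minus that in N_28 was -1.14 for HOXB7, -1.02 for HOXC4 and -0.61 for HOXB6. In each of the 3 genes all 3 N_30 libraries lay below all 3 N_28 libraries, a pattern 18.1% of all tested genes showed. The 3 genes were chosen by the same comparison, so this pattern adds no support. The call of HOXB6 was lost in 4 and that of HOXC4 in 6 of the fits that left out 1 library, and that of HOXB7 in none. This comparison called 3 of the 13 tested HOX genes and 18.3% of all tested genes. Summed hepatocyte markers, at 10.1 to 10.9 CPM in N_28 and 21.9 to 30.0 in N_30, moved between the same groups. Their part in the difference was not tested.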

How the results depend on the processing

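The 39 HOX results for single genes were recomputed under 606 alternatives: 579 kept the side of the threshold, 17 lost the call, 10 gained it and no call reversed. Some estimates that were not called changed sign. Among them were HOXA5 (log2 fold changes from -0.313 to 0.198) and HOXB7 (-0.251 to 0.165) in N_30 against control. Leaving out 1 library gave 1 to 4 HOX genes called in N_28 (1 without control 3), 0 in N_30 against control and 1 to 3 in N_30 against N_28 (1 without N_28 library 3 and 1 without N_30 library 1), and moved the N_28 median of the tested HOX genes between 0.63 and 0.86. With no filter on low counts, 1 was called in N_30 (HOXB13) and 5 in N_30 against N_28. With the replicate block the HOX counts were 3 in N_28, 0 in N_30, 0 for the mean of both and 4 in N_30 against N_28, so it changed the call of HOXC6 alone, while calls among all genes in N_30 went from 130 to 424. Over all alternatives these ran from 57 to 523, with 262 by DESeq2. By the longest transcript, HOXA3 stood at 2.20, HOXB6 at 3.11 and HOXC4 at 0.561 CPM per kilobase, each still highest in its cluster. With a 2 Mb window the neighbour medians were 0.0291 (HOXA, N_28, changing sign), 0.0158 (HOXA, N_30), -0.0718 (HOXC, N_28) and 0.0819 (HOXD, N_28). These shifts' causes were not tested. The mean of both groups has no separate fit on only the groups compared. A filter at a mean of 1 CPM left 7 HOX genes tested. Depth limits genes of a few reads, among them HOXC6, HOXC8, HOXB13 and LINC03057.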
